A study of Mus musculus with 6 samples.

Results

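Levels of *Trp53* and 9 of its direct target genes were examined in nuclear RNA from mouse embryonic stem cells. The 10 genes were chosen by symbol, and each was found as 1 entry among the 20633 RefSeq entries of the deposited table. Nuclear RNA had been sequenced from 6 libraries. All of them came from the *Rybp* fl/fl;*Yaf2* -/- line, isolated as a colony after Cas9 deletion in *Yaf2*, in which *Rybp* is flanked by loxP sites and a tamoxifen-inducible Cre recombinase is expressed from a promoter not given in the sources used here. The 3 untreated libraries (UNT) and the 3 libraries from cells given 800 nM 4-hydroxytamoxifen for 96 hr (OHT) therefore share the loss of *Yaf2* and the Cre transgene, and differ in OHT, in active Cre and in *Rybp* deletion at once. OHT-treated cells without floxed *Rybp* were not among the samples, so that a response to Cre, to OHT or to *Rybp* deletion cannot be told apart by this design.

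The value analysed for each gene is the base mean, the authors' average of size-normalized counts across all 6 libraries. It is 1 number for both groups together, without a replicate error, and it holds no difference between OHT and UNT. Whether the p53 targets moved after OHT is accordingly not reported here, and the levels below describe where these genes stand in cells of both treatments. Depth per library is unknown, so counting intervals were not computed.

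The p53 protein is a transcription factor that is held at low abundance in unstressed cells, because MDM2, itself the product of a p53 target gene, marks it for degradation. Breaks in DNA activate the kinases ATM and ATR, which free p53 from this control, and p53 then binds DNA as a tetramer at a pair of consensus decamers. Its targets arrest the cell cycle, promote apoptosis, adjust metabolism and feed back on p53. Cre recombinase can cut genomic sequences that resemble loxP, and for this reason p53 target transcription is used as a sign of Cre-induced damage. Embryonic stem cells are known for abundant p53.

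The consensus to which p53 binds was sought in the promoters of the members, from 250 bases before to 50 bases after an annotated start. Distances below are counted from that start. For *Ccng1*, *Bax*, *Trp53* and *Eda2r* it lies inside the gene coordinates given further below, not at their outer end. RefSeq promoter sequences of GRCm38.p6 were found for 8 of the 10 genes, and *Trp53inp1* and *Zmat3* are named only. A match was a pair of p53 consensus decamers at most 13 bases apart with at most 2 mismatches in all. The decamer is its own reverse complement, so that one search covers both strands. *Ccng1* and *Bax* held such a match, 2 of 8 genes, against 4.71% of the 27025 genes with a promoter sequence. With 3 mismatches allowed, *Trp53* and *Bbc3* were added, which makes 4 of 8 genes against 17.4% of all genes. For *Bbc3* the promoter table holds 3 starts, so that more sequence was searched than for the others. All 3 lie inside the *Bbc3* gene, and the promoter at its outermost annotated start was not searched. *Bax*, *Bbc3* and *Trp53* each held 2 matches with equally few mismatches, of which the one with the shorter spacer was taken. The match of each of the 4 genes is printed 5′ to 3′ in the sense of the gene, with both decamers in capitals and the spacer and flanking bases in lower case.

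Ccng1: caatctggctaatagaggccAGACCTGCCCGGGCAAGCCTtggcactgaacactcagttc
Bax: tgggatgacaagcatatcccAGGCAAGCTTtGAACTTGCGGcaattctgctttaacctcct
Bbc3: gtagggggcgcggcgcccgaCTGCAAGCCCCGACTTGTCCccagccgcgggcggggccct
Trp53: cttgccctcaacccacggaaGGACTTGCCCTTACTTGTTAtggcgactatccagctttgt

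The *Ccng1* sequence (GRCm38.p6, minus strand, chr11:40755442-40755501) carried 1 mismatch over both decamers, the fewest among the members, and no spacer. Its match began 195 bases before the start searched, outside any gene of the GENCODE M21 annotation. In *Bax* (minus strand, chr7:45467059-45467119) the first decamer matched exactly, the second had 2 mismatches, and the spacer was 1 base. The match began 201 bases before the *Bax* start searched and lay inside the annotated gene *Gm45808*, outside its exons. The *Bbc3* sequence (plus strand, chr7:16309466-16309525) had 3 mismatches and no spacer, 97 bases before the most upstream of the 3 starts searched, in intronic sequence of the *Bbc3* gene itself. *Trp53* (plus strand, chr11:69580264-69580323) had an exact first decamer followed without a spacer by one with 3 mismatches, 75 bases before the start searched. *Mdm2* held an exact single decamer, as did *Bax*, *Ccng1* and *Trp53*, against 9.55% of all genes. In *Phlda3*, *Sesn2* and *Eda2r* the closest pair had 5 or 6 mismatches. These are matches of letters in a short window, and binding of p53 was not measured.

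**Figure D1:**
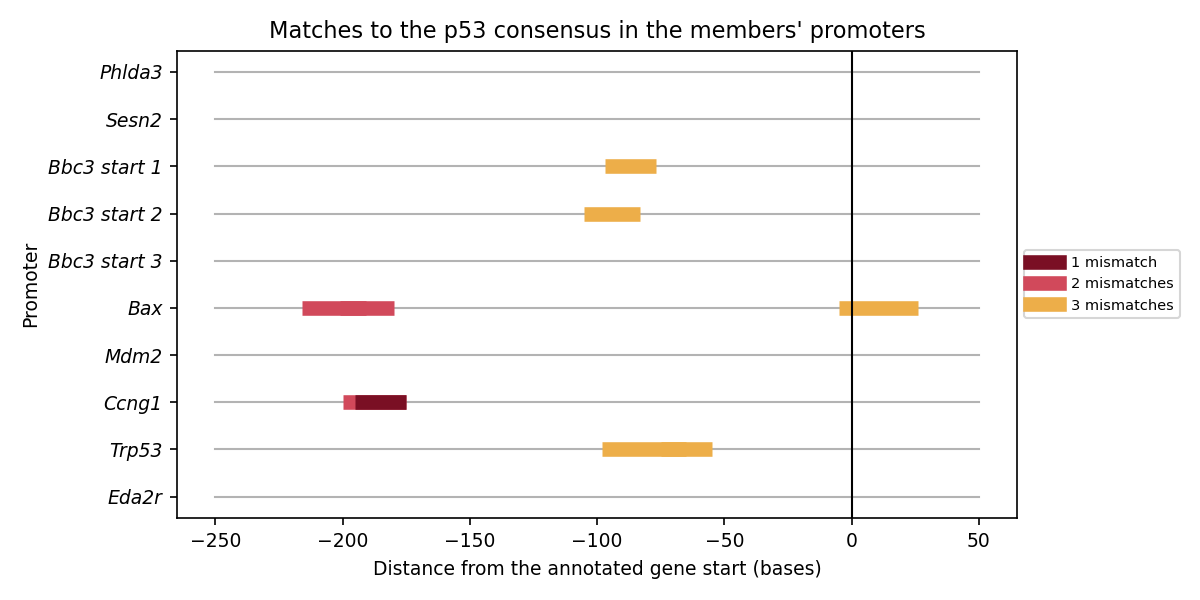
Positions of matches to a pair of p53 consensus decamers in 10 promoters of 8 member genes. The x axis is the distance in bases from the annotated start of each promoter, and colour gives the number of mismatches. The match with 1 mismatch lies in *Ccng1*, the matches with 2 mismatches lie in *Bax* and *Ccng1*, and *Phlda3*, *Sesn2*, *Mdm2* and *Eda2r* have none within 3 mismatches.

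The members stood high in the table. Medians and percentiles below refer to the 19198 entries with a base mean above 0. Those per kb refer to the 19035 of these entries with a span or the 18871 with a spliced length. The median base mean of the 19198 was 306.7 normalized counts, and 9 of the 10 members exceeded it. Their median base mean was 3398 normalized counts, at a median percentile of 90.5. A base mean above 1000 was reached by 8 of the 10 members, against 29.4% of all entries above 0. These percentiles rank single values whose error is unknown, so that neighbours in the order below cannot be separated by a test.

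*Trp53* (chromosome 11 of mm10, 69580348 to 69591873, plus strand) had a base mean of 3198 normalized counts, at percentile 89.8. The RNA of the factor itself was thus abundant in the nuclei, as the mean of treated and untreated cells. *Mdm2* (chromosome 10, 117688875 to 117710758, minus strand), the ubiquitin ligase that degrades p53, had a base mean of 5527 normalized counts at percentile 95.2. *Ccng1* (chromosome 11, 40748552 to 40755309, minus strand) encodes cyclin G1, which acts in feedback on p53 through a protein phosphatase, and its base mean was 5143 normalized counts at percentile 94.6. Both genes of the feedback group therefore lay above *Trp53* by base mean, which is not scaled by length.

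The pair of apoptosis genes differed in level. *Bax* (chromosome 7, 45461695 to 45466903, minus strand), whose protein permeabilizes the outer mitochondrial membrane, had a base mean of 1654 normalized counts at percentile 79.9. *Bbc3* (chromosome 7, 16308398 to 16318334, plus strand) encodes PUMA, a BH3-only protein that sets BAX free to act. It was the lowest of the members and the one below the median of all entries, with a base mean of 271.5 normalized counts at percentile 48.2. *Eda2r* (chromosome X, 97333837 to 97377234, minus strand), a receptor of the tumour necrosis factor receptor family, had a base mean of 4722 normalized counts at percentile 93.9, over a gene that is the longest of the members at 43.4 kb.

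Among the stress response genes, *Trp53inp1* (chromosome 4, 11156441 to 11174379, plus strand), which encodes a stress-induced partner of p53, had the highest base mean of the members. It reached 8632 normalized counts at percentile 97.9. *Sesn2* (chromosome 4, 132492804 to 132510456, minus strand), a sestrin that restrains mTORC1, had a base mean of 1367 normalized counts at percentile 76.5. *Phlda3* (chromosome 1, 135766085 to 135769134, plus strand), whose PH-domain protein opposes AKT, had a base mean of 658.3 normalized counts at percentile 62.9, from the shortest gene of the members at 3.05 kb. *Zmat3* (chromosome 3, 32334792 to 32365665, minus strand) encodes a zinc finger protein that binds RNA, and had a base mean of 3599 normalized counts at percentile 91.2. From *Trp53inp1* to *Bbc3* the base means covered a 31.8-fold range.

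Base means grow with gene length, so the genes were compared with each other per kb of gene span (the distance between the annotated gene ends). The span was used because reads of unspliced transcripts fall in introns, and exons made up between 10.9% of the span in *Eda2r* and 52.0% in *Ccng1*. Across the 18773 entries with both lengths, the Spearman correlation of the base mean was 0.35 with the span and 0.38 with the spliced length, which does not show which of the lengths the counts follow. All 10 members exceeded the median of all entries per kb of span, which was 12.2 normalized counts per kb. Their median percentile on this scale was 96.0.

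*Ccng1* had the highest level per length among the members, 761.1 normalized counts per kb of span at percentile 99.1. *Trp53inp1* followed with 481.2 per kb of span. *Bax*, *Trp53* (277.5), *Mdm2* (252.5) and *Phlda3* lay between 215.8 and 317.5 normalized counts per kb of span, with *Mdm2* below *Trp53*. *Phlda3* thereby moved from percentile 62.9 by base mean to percentile 95.6 per kb of span, the largest shift among the members. *Zmat3* and *Eda2r* had 116.6 and 108.8 normalized counts per kb of span, and *Sesn2* had 77.4. *Bbc3* was again the lowest, with 27.3 normalized counts per kb of span at percentile 64.0.

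Per kb of spliced transcript the order changed at the top. *Bax* came first with 1907 normalized counts per kb of spliced transcript, followed by *Mdm2* with 1783 and *Trp53* with 1713. *Ccng1*, first per kb of span, had 1465 normalized counts per kb of spliced transcript. *Bbc3* was last on each of the 3 scales, with 149.7 normalized counts per kb of spliced transcript.

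**Figure D2:**
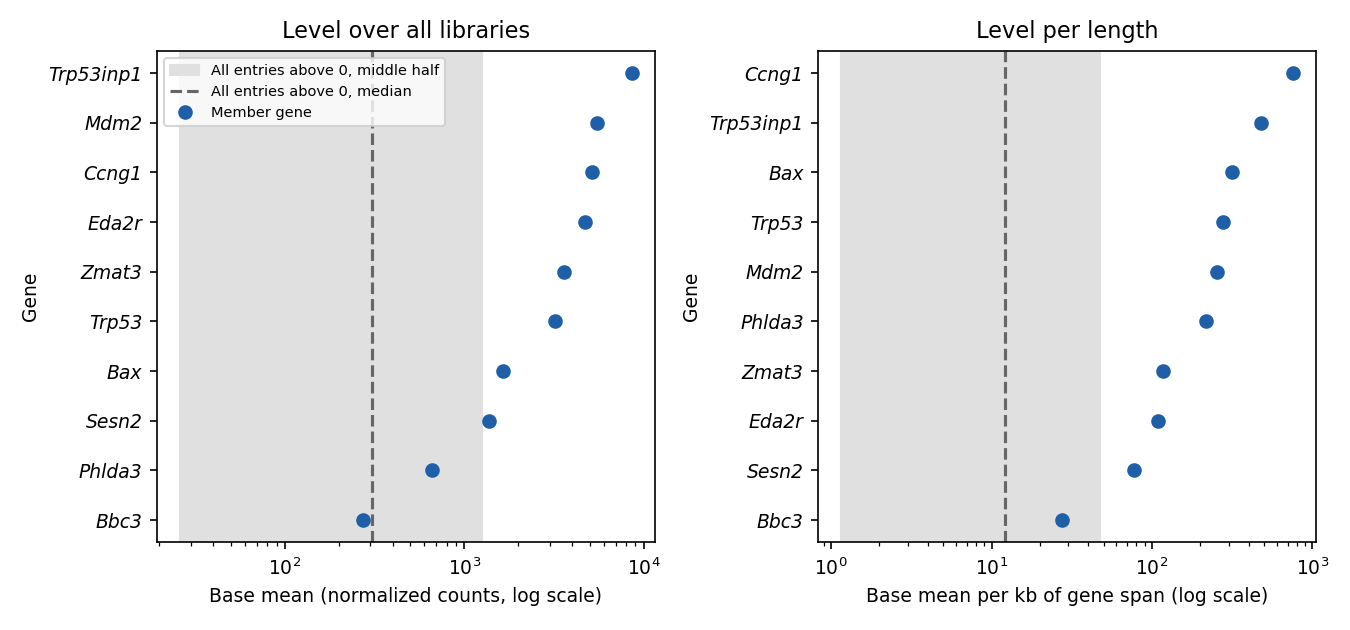
Levels of the 10 member genes on log axes, as base mean in normalized counts (left) and per kb of gene span (right), with 1 point for each gene as the mean over all 6 libraries. The shaded band spans the lower to the upper quartile of entries above 0, and the dashed line is their median. *Bbc3*, at 271.5 normalized counts, is the member left of the median line on the left, and no member is left of it on the right.

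Other genes of the pathway were taken from a list of 33 genes ordered by role, of which 29 had an entry. *Mdm4*, *Cop1*, *Sfn* and *Bid* were not matched to an entry and are not analysed here. By base mean, 26 of the 29 exceeded the median of all entries, with a median percentile of 73.6, and per kb of span 25 of the 29 did so, with a median percentile of 75.8. All 5 damage kinases exceeded the median of all entries on both scales, and they ran from 38.8 normalized counts per kb of span for *Prkdc*, the DNA-dependent protein kinase, to 81.8 for the checkpoint kinase gene *Chek1*. *Atm* had 54.7 and *Atr* 49.7 normalized counts per kb of span. By base mean *Prkdc* was instead the highest of the kinases with 7936 normalized counts, and *Chek1* the lowest with 1488.

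The 3 genes of p53 control with an entry ranged from 37.2 normalized counts per kb of span for *Ppm1d*, a phosphatase that acts on p53, to 160.4 for *Usp7*, a deubiquitinase of p53 and MDM2. Among the 5 arrest genes, *Gadd45a* was highest with 399.1 normalized counts per kb of span and *Cdkn1a*, which encodes the inhibitor p21, was lowest with 79.7. Their median percentile per kb of span, 95.2, was near the 96.0 of the members. By base mean their median percentile was 72.8, below the 90.5 of the members. *Cdkn1a* was also the lowest of them by base mean, with 776.5 normalized counts, but not per kb of spliced transcript. On that scale it had 842.2 normalized counts, against 754.4 for *Gadd45a*. Of the 7 apoptosis genes, *Pmaip1*, which encodes the BH3-only protein NOXA, was highest with 278.3 normalized counts per kb of span. *Fas*, a death receptor, was lowest with 0.486 normalized counts per kb of span and a base mean of 18.0 normalized counts.

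Genes of stress metabolism lay between 16.0 normalized counts per kb of span for *Sesn1* and 36.5 for *Tigar*. On the other scales *Sesn1* was instead the highest of this group. Its base mean was 1566 normalized counts, and it had 411.1 per kb of spliced transcript. Genes of DNA repair lay between 12.1 for *Rrm2b*, a ribonucleotide reductase subunit, and 40.3 for the translesion polymerase gene *Polk*, in normalized counts per kb of span. The p53 relatives were the lowest group, with 1.29 normalized counts per kb of span for *Trp73* and 0.046 for *Trp63*.

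**Figure D3:**
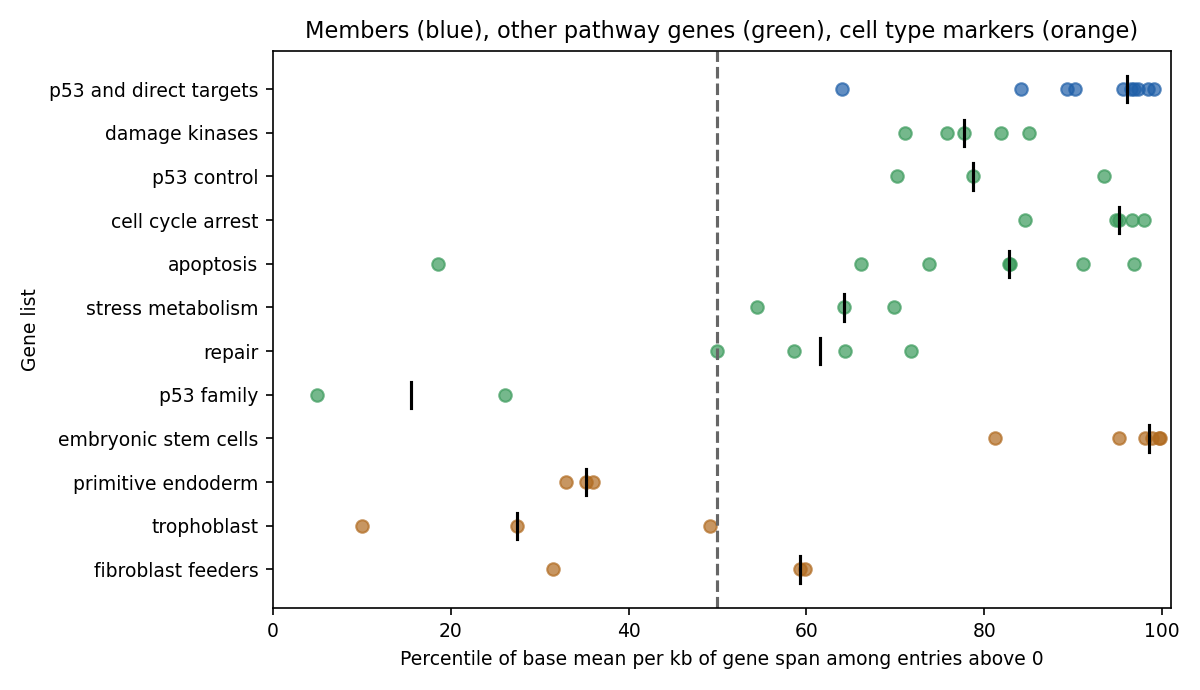
Percentile of the level per kb of gene span among entries above 0, with 1 point per gene, a black bar at the median of each list and a dashed line at percentile 50. The members have a median of 96.0, the arrest genes 95.2 and the p53 family 15.5, and the stem cell markers lie to the right of the markers of other lineages.

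The stated cell type was checked against its markers. All 6 stem cell markers exceeded the median of all entries, from 2399 normalized counts for *Zfp42* to 14300 for *Tdgf1* by base mean. The 3 primitive endoderm and the 3 trophoblast markers were all under it, with base means of 5.21 to 268.5 normalized counts, and of the 3 fibroblast markers *Col1a1* exceeded it with 369.3. Per kb of span, 2 of the 3 fibroblast markers exceeded the median of all entries, at a median percentile of 59.3 for the list. These were *Col1a1* with 22.0 and *Thy1* with 21.2 normalized counts per kb. Per kb of spliced transcript, all 3 fibroblast markers were under the median of 118.75 normalized counts per kb. *Col1a1* had 62.3, *Thy1* 63.6 and *Col1a2* 16.2 on that scale. The part of such cells in the levels of the members was not tested. The deleted gene *Yaf2* had a base mean of 3.24 normalized counts. *Rybp* had 13983, which is a mean over libraries before and after its deletion and checks no label.

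*Bax* and *Sesn2* overlap other annotated genes. *Gm45808* covers 17.6% of the *Bax* gene on its strand in the GENCODE annotation, and *Gm12981* covers 33.0% of *Sesn2* on its strand. Neither gene was matched to an entry, and their part in the levels was not tested. The other 8 members overlap no annotated gene.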

How the data were processed

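Nuclear RNA of 3 UNT and 3 OHT libraries was sequenced. After bowtie2 had filtered out rRNA fragments, the authors mapped reads to mm10 with STAR, gave unmapped ones a second pass in bowtie2 to capture introns, obtained counts per gene from a custom script over a reduced set of refGene transcripts, and applied DESeq2 at its defaults. Versions and the use of strand in counting are not given in the sources used here. The deposited base mean is a signal that the authors averaged across libraries after dividing counts by size factors, and it is not scaled by length. The other 6 columns hold the authors' own comparison of OHT with UNT (fold change, error, statistic, p-values and a flag) and were not used. The count test planned in case counts per library were given could not be run.

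A symbol was found for 20446 of the 20633 entries in RefSeq's gene table for GRCm38.p6, whose coordinates are those of mm10, and 1435 entries had a base mean of 0. Percentiles count entries above 0 that lie lower, with ties counted by their midpoint. Spliced lengths and strands came from GENCODE M21. Spans are those of the whole gene, and entries may be shorter. Where a gene had several entries, the one with the highest base mean was kept. Of 10 member promoters, 6 were found in the sense of an annotated transcript and 0 in antisense. A mismatch was not allowed at the C or G of a decamer. The search for decamer pairs and the percentile calculation were tested on simulated data. The simulated sequence held only A and T outside planted sites, so false matches were not tested by it. Python 3.11.15, numpy 2.4.6, pandas 2.3.3, scipy 1.17.1 and matplotlib 3.10.9 were used.

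The named genes are all members, *Rybp* and *Yaf2*, overlapping genes, and the highest and lowest pathway gene of each role per kb of span. In some roles other genes are highest or lowest on the other scales. *Atm*, *Atr* and the named markers were added after their values were seen. Members and lists were chosen with earlier results of these data known. Alternatives were other sets of entries to rank among, a base mean minimum of 10, scaling by length, the lowest entry of a gene, and other spacers and mismatch numbers.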

Additional observations from a re-analysis of the deposited data

How the results depend on the processing

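No paired analysis was possible because only a mean across libraries was used. Leaving out a replicate and other tools for the contrast were not run either, and the precision of each level is unknown.

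The number of members above the median of all entries was 9 or 10 under each of the 6 alternatives. Their median percentile, 90.5, was 91.1 with entries at 0 included, 88.3 with a base mean of at least 10, 96.0 per kb of gene span and 91.8 per kb of spliced transcript. Of the 10 single percentiles, *Bbc3* fell to 36.4 with a base mean of at least 10, and scaling by the span moved percentiles by -4.5 to 32.7 points. Scaling by the spliced transcript moved them by -15.1 to 16.2 points, with the largest fall in *Zmat3*, from 91.2 to 76.1. With 1 entry per gene symbol none moved by more than 0.1 points, and keeping the lowest entry changed nothing, since each member has 1 entry. The number of members with a p53 match in a promoter, 2 of 8, was 1 without a spacer, 0 without mismatches and 4 with 3 mismatches allowed.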
